A study of Mus musculus with 12 samples.

Results

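The libraries compared here were those of wild-type kidneys after unilateral ureteral obstruction (UUO) and of wild-type kidneys after unilateral ischemia-reperfusion injury (UIRI), with 3 libraries in each group and 6 of the 12 libraries of the series in all. They are the wild-type columns of 2 expression tables, 1 of which also holds β-catenin knockout kidneys after UUO and the other CD44 knockout kidneys after UIRI. No knockout column was used. The tables were joined by gene identifier, each column was rescaled so that all sum to the same total (TPM, a length-corrected share of a library's messages), and the 16339 of 54532 listed genes that averaged 0.5 FPKM or more across the columns were tested. Every UUO library stands in 1 table and every UIRI library in the other, so the injury and the table, with whatever differed between the tables in surgery, mouse colony, library preparation and sequencing, cannot be told apart in any result below.

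All 6 kidneys were labelled wild-type, C57BL/6 strain. The study's methods describe male mice in young adulthood. In UUO the ureter of 1 kidney is tied for good. In UIRI, as the methods describe it, 1 renal pedicle is clipped and released and the other kidney is removed shortly before the mice are killed. The methods do not describe the CD44 knockout experiment. That its wild-type mice match this protocol, sex and age is an inference. The wild-type mice of the UUO table are the controls of a knockout made with a Ksp-Cre transgene, which acts in tubule cells. The study's authors write that Ksp-Cre mice would make better wild-type controls in future work, so these controls presumably lacked the transgene. Whether they carried floxed alleles is not given in the sources used here, nor is the time between obstruction and sampling. No uninjured kidney is part of the comparison, so a gene that was higher after UUO was higher than after UIRI, with no statement about a healthy kidney. In whole-kidney RNA, fewer cells of a type and less RNA per cell cannot be told apart.

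Both operations are standard routes to a scarred kidney in the mouse. Obstruction stops urine flow, raises pressure in the lumen and stretches the tubules, the collecting system most of all, whereas a clipped pedicle starves the tissue of oxygen and damages mainly the proximal tubule, which depends on mitochondria for its transport work. In both models injured tubule cells lose transporters and make injury proteins such as KIM-1, monocytes and lymphocytes enter, and fibroblasts lay down matrix.

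Reads assigned to genes ranged from 15940405 to 18760208 per library. The libraries separated by group on the first principal component, which held 53.8% of the variance. Kidney genes were found in all 6 libraries: Umod, the urinary protein of the thick ascending limb, lay between 748 and 2531 TPM, Lrp2 (megalin) of the proximal tubule between 45.3 and 113 TPM, and Nphs1 (nephrin) of podocytes between 7.36 and 14.9 TPM. Alb and Adipoq, which define liver and fat, stayed under 0.7 TPM in each. A pair of libraries stood apart from their group. UUO library 3 held S100a8, a neutrophil protein, at 554 TPM against 20.3 to 53.9 TPM in the other 5 libraries, and the genes of the neutrophil list summed to 1846 TPM there and to between 80.9 and 210 TPM elsewhere. UIRI library 2 held Upk3a and Krt5, which mark the urothelium of the renal pelvis, at 30.3 and 18.3 TPM, against at most 1.01 and 0.358 TPM in the others.

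By limma with Benjamini-Hochberg adjustment over all genes tested, 2909 genes (17.8%) were higher after UUO and 2033 (12.4%) were lower at an adjusted p under 0.05. Of these, 474 (2.9% of the genes tested) were higher and 598 (3.66%) lower by at least 2-fold. All UUO libraries lay above all UIRI libraries for 4971 genes (30.4%) and all UIRI libraries above all UUO libraries for 3094 (18.9%). The median log2 fold change (UUO minus UIRI) over all genes tested was 0.12, and the list medians below are to be read against it. On other scales that median was close to 0 and the balance of calls turned: 1930 genes were higher and 2843 lower with the FPKM values as deposited, 2048 and 2738 with median-of-ratios scaling, and 2261 and 2916 with limma voom on the recovered reads. Without UIRI library 2 there were 1157 higher and 1104 lower genes. The higher count was also 1662 without UUO library 1, 1771 without UUO library 3, 1677 without UIRI library 1 and 1804 without UIRI library 3, and the lower count 1189 without UIRI library 1. With 3 libraries against 3, an exact two-sided permutation test of a single gene cannot give a p below 0.1, and each gene below whose groups do not overlap reached that value. All fold changes are on the log2(TPM + 1) scale, which understates the change of genes with low levels.

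**Figure D1:**
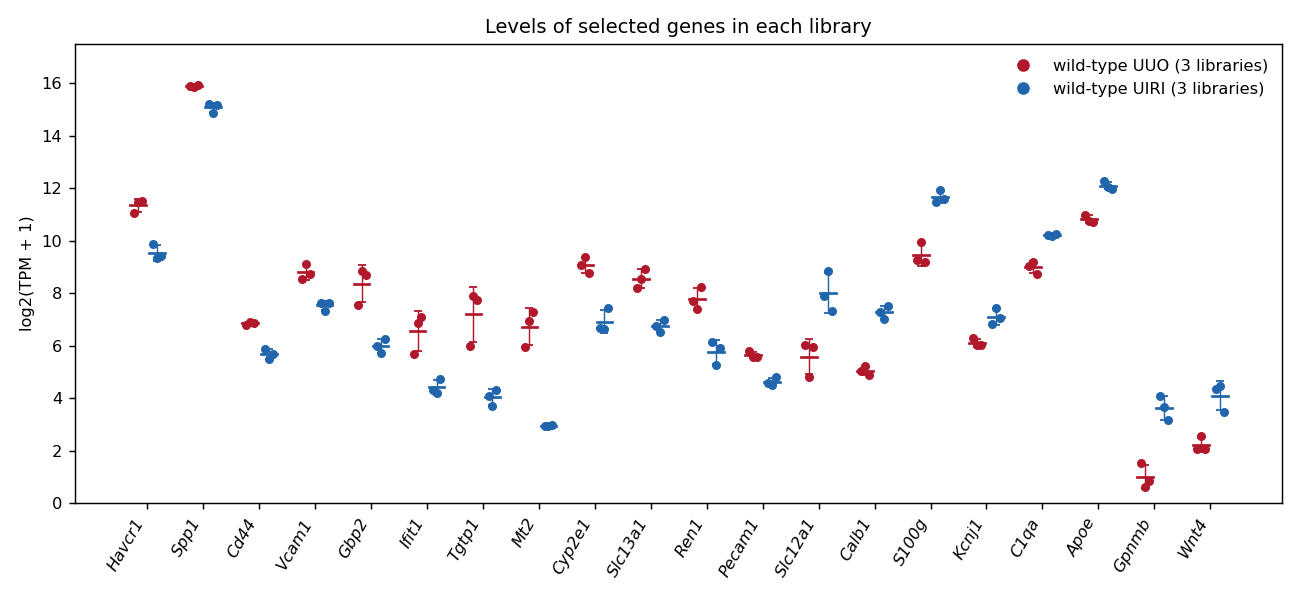
Level of 20 genes, as log2(TPM + 1) on the vertical axis, in the 3 wild-type UUO libraries (red) and the 3 wild-type UIRI libraries (blue). Each point is 1 library, the horizontal line is the group mean and the error bar is ± 1 SD. The UUO libraries lie above the UIRI libraries for Havcr1 to Pecam1 and below them for Slc12a1 to Wnt4.

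Interferon-stimulated genes were higher after UUO almost as a whole. These genes are switched on when interferons bind their receptors, through transcription factors that dock on the interferon-stimulated response element (ISRE) in the promoter. Of 31 measured members of the list, 28 were higher after UUO and 0 lower, with a median log2 fold change of 1.599, beside 17.8% higher and 12.4% lower over all genes. Ifi27l2a, Irf9 and Bst2 were the members not called, at -0.06, 0.39 and 0.75, of which Irf9 and Bst2 were called higher without UUO library 1 and Bst2 also with the gene length trend removed (1.22). All UUO libraries lay above all UIRI libraries for 28 of the 31 members, against 30.4% of all genes tested. Without UIRI library 2 there were 22 higher and without UUO library 3 25, with 0 lower in both cases. In 30 of the 31 genes UUO library 1 was the lowest of its group.

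The promoters of 3 called members are shown because they hold the ISRE letters close to the gene start. In each, from RefSeq (GRCm38.p6), a 300-base window that starts upstream of the gene start and ends just past it is given 5′ to 3′ on the gene's strand, and capitals mark matches to GAAANNGAAA on either strand, overlapping matches included.
Ifit1 (chr19:34640639-34640938, plus strand): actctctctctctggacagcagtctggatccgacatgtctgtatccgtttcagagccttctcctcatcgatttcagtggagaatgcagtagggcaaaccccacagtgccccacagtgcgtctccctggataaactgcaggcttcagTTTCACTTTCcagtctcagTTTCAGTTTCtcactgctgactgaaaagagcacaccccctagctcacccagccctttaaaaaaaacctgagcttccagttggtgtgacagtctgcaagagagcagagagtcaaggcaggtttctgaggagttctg
Irgm1 (chr11:48871371-48871670, minus strand): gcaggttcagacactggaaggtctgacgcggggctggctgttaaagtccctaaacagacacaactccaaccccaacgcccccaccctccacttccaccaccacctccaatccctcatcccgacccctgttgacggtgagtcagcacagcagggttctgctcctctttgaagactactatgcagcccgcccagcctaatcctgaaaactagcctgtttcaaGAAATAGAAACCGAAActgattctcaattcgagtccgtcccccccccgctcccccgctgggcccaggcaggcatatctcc
Gbp2 (chr3:142620413-142620712, plus strand): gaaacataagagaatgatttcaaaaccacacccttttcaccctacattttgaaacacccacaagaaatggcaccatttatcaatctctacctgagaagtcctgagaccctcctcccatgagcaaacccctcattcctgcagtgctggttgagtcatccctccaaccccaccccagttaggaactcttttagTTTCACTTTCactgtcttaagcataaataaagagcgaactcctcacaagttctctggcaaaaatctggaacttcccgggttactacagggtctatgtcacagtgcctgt
A promoter was given for 20 of the 28 called members. At least 1 promoter of 13 of these 20 genes (65.0%) held the ISRE letters, against 1079 of all 27025 genes with a promoter (3.99%). The list was made of genes known as interferon-stimulated, so this share follows from the choice of genes. It is no result about the UUO and UIRI groups. A match is a description of the letters and does not show that a factor was bound.

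Ifit1, an RNA-binding antiviral protein, stood at 50.3, 115 and 137 TPM in UUO libraries 1 to 3 and at 19.1, 17.3 and 25.3 TPM in UIRI libraries 1 to 3. That is a log2 fold change of 2.14 ± 0.36 (SE), or 4.396-fold, with an adjusted p of 0.00788. Irgm1, a GTPase that acts on vacuoles holding microbes, was at 110.1, 266 and 233 TPM after UUO and 56.9, 51.4 and 56.4 TPM after UIRI (log2 fold change 1.77 ± 0.305, adjusted p = 0.00849). UUO library 1 was the lowest of its group for both genes and still lay above every UIRI library. Gbp2, a guanylate-binding protein of the interferon-gamma response, was at 186, 455 and 412 TPM after UUO and at 61.98, 52.3 and 74.9 TPM after UIRI (2.37 ± 0.33, 5.17-fold, adjusted p = 0.00492). Tgtp1, another interferon-inducible GTPase, had the second largest rise of the protein-coding genes that met the naming rule: 62.7, 237 and 211 TPM against 15.8, 12.2 and 19.04 TPM, a log2 fold change of 3.17 ± 0.48 (adjusted p = 0.00605) and of 3.77 without UUO library 1. Iigp1, Gbp5 and Ms4a4c were also among the 12 protein-coding genes with the largest rise, at log2 fold changes of 2.54, 2.37 and 2.38. Rsad2 (viperin) was at 51.4, 59.7 and 81.7 TPM after UUO and 14.9, 14.02 and 22.8 TPM after UIRI, and Mx1 at 34.5, 32.9 and 29.7 and 6.22, 6.41 and 12.9 TPM. The UUO libraries differed less from each other in both of these genes than in Gbp2 or Ifit1. The transcription factor Irf7, which feeds the type I response, was 3.05-fold higher (adjusted p = 0.011).

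**Figure D2:**
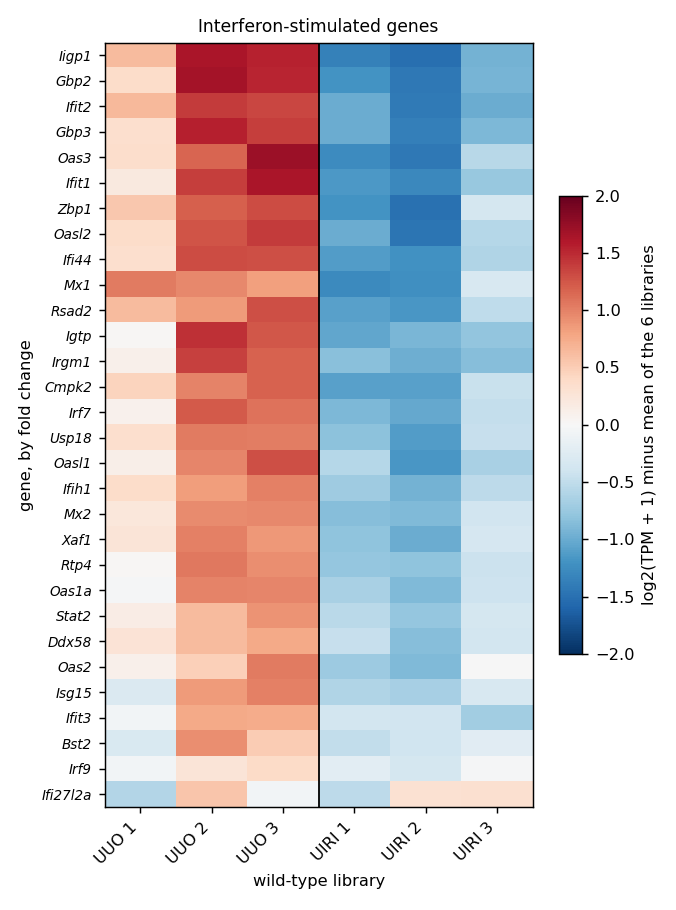
Heat map of 30 of the 31 measured interferon-stimulated genes (rows, ordered by fold change) in the 6 wild-type libraries (columns). Colour is log2(TPM + 1) minus the gene's mean over the 6 libraries. Colours saturate at 2 in either direction. All rows but Ifi27l2a, Irf9 and Bst2 were called higher after UUO, and UUO library 1 is the lowest of the UUO libraries in 29 of the 30 rows.

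Some antigen presentation and chemokine genes were also higher after UUO, while most members of these lists were not called. Of 21 MHC and antigen processing genes 6 were higher and 0 lower (28.6% higher, against 17.8% over all genes, median 0.55), a count that was 2 without UIRI library 1 or 2, 3 without UUO library 2 or 3 and 12 without UUO library 1. Tap1, which carries peptides to class I molecules, was at 60.5, 98.04 and 98.2 TPM after UUO and 36.3, 33.4 and 40.8 TPM after UIRI (1.16 ± 0.198, adjusted p = 0.0082). Of 36 chemokines and chemokine receptors 9 were higher (25%, against 17.8% over all genes) and 1 lower, with 5 higher without UUO library 2 or UIRI library 2, and 4 lower without UUO library 2. Cxcl10, the T cell attractant named for its induction by interferon-gamma, was at 124, 314 and 354 TPM after UUO and 42.4, 58.7 and 47.03 TPM after UIRI (2.27 ± 0.38, adjusted p = 0.00777), and the monocyte attractant Ccl12 was 3.46-fold higher (adjusted p = 0.0118). Gzma (granzyme A), carried by cytotoxic lymphocytes, was at 12.9, 20.9 and 21.6 TPM against 2.06, 1.73 and 3.55 TPM (2.501 ± 0.26, adjusted p = 0.00255). Ncr1 (NKp46), which defines natural killer cells, was at 6.26, 4.697 and 2.78 TPM against 0, 0.472 and 0.65 TPM (adjusted p = 0.00852). Apart from these, 18 of 21 T and natural killer cell genes were not called and Il7r was lower (-1.22), and the summed level of the list ranged from 111 to 309.8 TPM after UUO and from 172 to 301 TPM after UIRI. The part of lymphocyte number in the interferon result was not tested.

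Macrophage genes split. The list of 24 held 7 members higher and 6 lower after UUO (29.2% and 25%, against 17.8% and 12.4% over all genes). The other 11 were not called. Without UUO library 1, 4 were higher. Receptors of monocytes and tissue macrophages were among the higher ones. Spp1 (osteopontin) was another, and the tubule injury and osteopontin lists below count it again. Cx3cr1, the fractalkine receptor, was at 67.04, 54.2 and 43.5 TPM after UUO and 20.9, 15.5 and 22.4 TPM after UIRI (1.43 ± 0.19, adjusted p = 0.00445). Adgre1 (F4/80), the usual marker of mouse macrophages, was at 94.3, 113 and 99.01 against 60.3, 45.5 and 65.3 TPM (0.84 ± 0.15, adjusted p = 0.00942), and Ly6c2, of inflammatory monocytes, was 2.72-fold higher (adjusted p = 0.0151). The complement list held the receptor C3ar1, found on myeloid cells, at 44.9, 56.3 and 46.7 against 20.4, 12.4 and 18.8 TPM (1.49 ± 0.19, adjusted p = 0.00392).

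Other products of the same cell lineage were lower after UUO. C1qa, a chain of the first complement component, was at 527, 588 and 428 TPM after UUO and 1194, 1173 and 1235 TPM after UIRI (-1.23 ± 0.13, adjusted p = 0.00261). Lyz2 (lysozyme) was at 1417, 1287 and 1486 against 2742, 2606 and 2806 TPM (-0.96 ± 0.11, adjusted p = 0.00284). Apoe, a lipid carrier, was at 2040.2, 1743 and 1669 against 4943, 4249 and 4073 TPM, 2.43-fold lower after UUO (adjusted p = 0.00261). Gpnmb, a glycoprotein of lipid-laden and lysosome-rich macrophages, was at 1.87, 0.531 and 0.821 against 15.9, 11.6 and 7.97 TPM (-2.63 ± 0.32, adjusted p = 0.00334), and the lipid sensor Trem2 was 2.23-fold lower (adjusted p = 0.00921). In each of these 5 genes every UUO library lay below every UIRI library. With the gene length and GC trends removed the falls of C1qa (-0.58), Lyz2 (-0.73) and Apoe (-0.84) were smaller and still called. Those of Gpnmb (-2.78) and Trem2 (-1.22) were not smaller. Csf1r and Cd68, which most macrophages carry, were not called (0.25 and 0.28), though Cd68 was called higher with the gene length trend (0.67), the GC trend (0.39) or both removed (0.69) and with columns rescaled over nuclear protein-coding genes (0.299). Of the 9 measured neutrophil genes, 0 were called by limma, 0 had an unadjusted p under 0.05 and 0 were called by limma voom, while 1 was called higher with no filter on low values. S100a8 was at 31.4, 29.7 and 554 TPM after UUO and 53.9, 20.3 and 33.2 TPM after UIRI, and its log2 fold change of 1.26 became -0.12 without UUO library 3.

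Tubule injury genes did not move together. Havcr1 (KIM-1), a receptor that injured proximal tubule cells place on their surface, was at 2147, 2864 and 2918 TPM after UUO and 946, 641 and 683 TPM after UIRI, 3.51-fold higher after UUO (1.81 ± 0.19, adjusted p = 0.00255). Vcam1, an adhesion molecule of inflamed tubule and vessel cells, was at 368, 561 and 429 against 199.6, 159 and 199 TPM (1.27 ± 0.17, adjusted p = 0.00463). Lcn2 (NGAL), the other widely used injury marker, was at 357, 393 and 1260.5 against 855, 561 and 595 TPM. Its groups overlapped and it was not called (-0.23, adjusted p = 0.729), whereas without UUO library 3, where S100a8 stood out, it was called lower after UUO (-0.81, adjusted p = 0.0333). Tmsb10 and the keratin Krt8 went the other way. Tmsb10, an actin-binding peptide, was at 404, 309 and 271 TPM after UUO and 1076, 1027 and 862 TPM after UIRI (-1.603 ± 0.17, adjusted p = 0.00248), and Krt8 at 517, 528 and 383 and 917, 791 and 758 TPM (-0.798 ± 0.15, adjusted p = 0.0112), of which Krt8 was no longer called with the length and GC trends removed (-0.38). Over the list of 32 injury genes 5 were higher and 8 lower (15.6% and 25%), with a median of -0.02. Over all genes 17.8% were higher and 12.4% lower, so the share that was higher was close to that of all genes. The higher ones numbered 2 without UIRI library 2 or 3 and 3 without UUO library 3 or UIRI library 1.

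Osteopontin and its receptor CD44 were both higher after UUO. Spp1 (osteopontin), a secreted matrix protein of injured tubules and macrophages, was the most abundant protein-coding message in every library, at between 5.88% and 6.23% of all TPM after UUO and between 3.03% and 3.75% after UIRI (0.801 ± 0.204, adjusted p = 0.0265). That call was lost under 9 alternatives, 5 of which left out a library, with log2 fold changes from 0.70 to 0.85 over the single libraries left out. Cd44, a receptor for hyaluronan and osteopontin, was at 109, 119.5 and 116 TPM after UUO and 57.9, 43.7 and 50.2 TPM after UIRI (1.18 ± 0.12, adjusted p = 0.00237). Itgav, an integrin chain that binds osteopontin, was at 179, 177 and 191 against 95.8, 80.9 and 98.1 TPM (0.99 ± 0.103, adjusted p = 0.00247). Of 12 genes of this list 5 were higher and 0 lower (41.7% higher, against 17.8% over all genes). Without UUO library 1 or 3 or UIRI library 2 or 3, 3 were higher.

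The metallothioneins, small proteins that bind zinc and copper and are induced by metals and glucocorticoids, differed from each other, and as close relatives they may share reads. Mt2 had the largest rise of any protein-coding gene that met the naming rule. It was at 60.97, 124 and 154 TPM after UUO and at 6.77, 6.67 and 6.81 TPM after UIRI, which the test gave as 3.78 ± 0.31 on the log2 scale (adjusted p = 0.00126). These levels stand for 212, 462 and 508 reads against 23, 27 and 28. Mt1, its neighbour at chr8:94179082-94180327 (GRCm38, plus strand) against chr8:94172664-94173568 for Mt2, was at 523, 608 and 1037 TPM after UUO and 1021, 926 and 919 TPM after UIRI, with overlapping groups (-0.47, adjusted p = 0.178). Without UUO library 3 Mt1 was called lower (-0.76). Both promoters are printed because the genes lie side by side and share metal response element letters, TGCGCNC or TGCACNC, marked in capitals on either strand. At least 1 such match was in the promoters of 28.2% of all genes.
Mt2 (chr8:94172368-94172667, plus strand): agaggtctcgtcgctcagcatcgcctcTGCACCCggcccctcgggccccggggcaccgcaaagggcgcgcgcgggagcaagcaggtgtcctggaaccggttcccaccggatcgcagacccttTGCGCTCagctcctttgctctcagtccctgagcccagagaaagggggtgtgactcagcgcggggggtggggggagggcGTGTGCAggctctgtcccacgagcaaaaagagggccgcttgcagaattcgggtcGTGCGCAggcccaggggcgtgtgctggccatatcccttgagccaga
Mt1 (chr8:94178839-94179138, plus strand): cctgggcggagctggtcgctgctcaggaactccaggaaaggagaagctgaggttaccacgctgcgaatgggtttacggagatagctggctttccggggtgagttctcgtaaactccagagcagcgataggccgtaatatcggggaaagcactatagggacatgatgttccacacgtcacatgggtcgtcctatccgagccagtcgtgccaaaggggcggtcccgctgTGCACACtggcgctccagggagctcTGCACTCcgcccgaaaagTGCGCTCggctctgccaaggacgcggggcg

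Along the nephron, proximal tubule genes tended to be higher after UUO and genes of the thick ascending limb and collecting duct lower. Of 30 proximal tubule genes 9 were higher and 2 lower (30% and 6.67%, against 17.8% and 12.4% over all genes, median 0.4). The other 19 were not called. Log2 fold changes were positive in 20 of the 30 and negative in 10, down to -1.1. Of 22 cytochrome P450 genes, most of which this segment expresses, 9 were higher and 1 lower (40.9% and 4.55%, median 0.55). Without UIRI library 2, where 1157 of all 16339 genes were higher, these lists had 4 and 6 higher. Cyp2e1 is counted in both lists. Slc13a1, the sulfate transporter, was at 293, 367 and 485 TPM after UUO and 106, 90.1 and 125 TPM after UIRI (1.81 ± 0.201, adjusted p = 0.00274). Cyp2e1, which oxidises ethanol and other small molecules, was at 536, 669 and 433 against 102, 98.7 and 172 TPM, 4.45-fold higher after UUO (adjusted p = 0.00288). Dab2, the adaptor of megalin uptake, was at 198, 159.6 and 204 against 102, 66.1 and 99.3 TPM (1.08 ± 0.19, adjusted p = 0.00859). Lrp2 itself overlapped between the groups, at 88.8, 67.2 and 113 against 54.8, 45.3 and 67.5 TPM, and was not called (0.66, adjusted p = 0.0547), though it was called higher without UUO library 2 (0.85) and with the filter at a mean of 1 FPKM (adjusted p = 0.0496).

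The thick ascending limb, which dilutes the urine by taking up salt, showed the opposite. Of 17 measured genes 8 were lower after UUO and 1 higher (the kinase Oxsr1), with a median of -0.99. These shares were 47.1% and 5.88%, against 12.4% and 17.8% over all genes. Slc12a1 (NKCC2), the salt cotransporter that defines the segment, was at 64.3, 26.9 and 60.4 TPM after UUO and 235, 459.5 and 161 TPM after UIRI (-2.43 ± 0.45, 5.397-fold lower, adjusted p = 0.0102). UIRI library 2 was the highest and UUO library 2 the lowest, and without UIRI library 2 the log2 fold change was -2.02. The potassium channel Kcnj1 (ROMK) was at 76.6, 64.97 and 63.6 against 112, 171 and 132 TPM (-0.99 ± 0.16, adjusted p = 0.0078). Umod did not pass the test (-0.82, adjusted p = 0.0561) except with the FPKM values as deposited and by limma voom, though all UUO libraries lay below all UIRI libraries, at 1071, 748 and 1175 against 1479, 2531 and 1380.3 TPM. Without UIRI library 2 the list still had 7 members lower and a median of -0.79.

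In the distal convoluted tubule, 2 calcium-binding genes were lower after UUO while the salt transporter was not called. Calb1 (calbindin), which buffers calcium as it crosses the cell, was at 31.5, 36.3 and 28.5 TPM after UUO and 154, 128 and 182 TPM after UIRI (-2.23 ± 0.15, 4.68-fold lower, adjusted p = 0.000739). S100g, another calcium carrier that vitamin D induces, was at 609, 999 and 581 against 2853, 3949.7 and 3119 TPM (-2.21 ± 0.23, adjusted p = 0.00255). With the gene length trend removed S100g was at -1.64 and still called. Slc12a3 (NCC), the thiazide-sensitive cotransporter, was at 206, 141 and 221 against 200.3, 179 and 299.9 TPM with overlapping groups (-0.25, adjusted p = 0.454). The kinase Wnk4, which regulates it, was 1.83-fold lower (adjusted p = 0.00347). The distal convoluted tubule list does not include S100g. Over its 16 genes 3 were higher and 5 lower (18.8% and 31.2%, against 17.8% and 12.4% over all genes). The higher ones numbered 0 without UUO library 1, UIRI library 1 or UIRI library 2. There was 1 without UUO library 3 or UIRI library 3.

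Of 16 principal cell genes of the collecting duct 8 were lower and 1 higher (50% and 6.25%, median -0.51). The shares over all genes were 12.4% and 17.8%. Leaving out any single library took the lower count of the list to between 2 and 5. The count was lowest without UUO library 2 or UIRI library 2, the library with pelvis genes, whose part in it was not tested. Over all 16339 genes the lower count fell too, from 2033 to 1618 without UUO library 2 and to 1104 without UIRI library 2. Aqp2, the vasopressin-regulated water channel, was at 347, 338 and 247 TPM after UUO and 393, 961 and 272 TPM after UIRI, with UIRI library 2 far above the rest, and was not called (-0.61, adjusted p = 0.308). The sodium channel subunit Scnn1a was at 46.2, 38.9 and 44.98 against 65.9, 57.9 and 77.4 TPM (-0.61 ± 0.13, adjusted p = 0.016), a call lost with the GC trend removed (-0.35, adjusted p = 0.11). Intercalated cells, which secrete acid or base, had 6 of 17 genes lower (35.3%) and 0 higher. Rhcg, an ammonia channel, was at 50.9, 45.4 and 59.5 against 118, 155 and 171 TPM (-1.48 ± 0.16, adjusted p = 0.00271), and the proton pump subunit Atp6v1b1 at 39.2, 29.3 and 33.1 against 59.02, 69.9 and 87.6 TPM (-1.06 ± 0.17, adjusted p = 0.00705). Without UIRI library 2, 5 intercalated cell genes were lower.

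**Figure D3:**
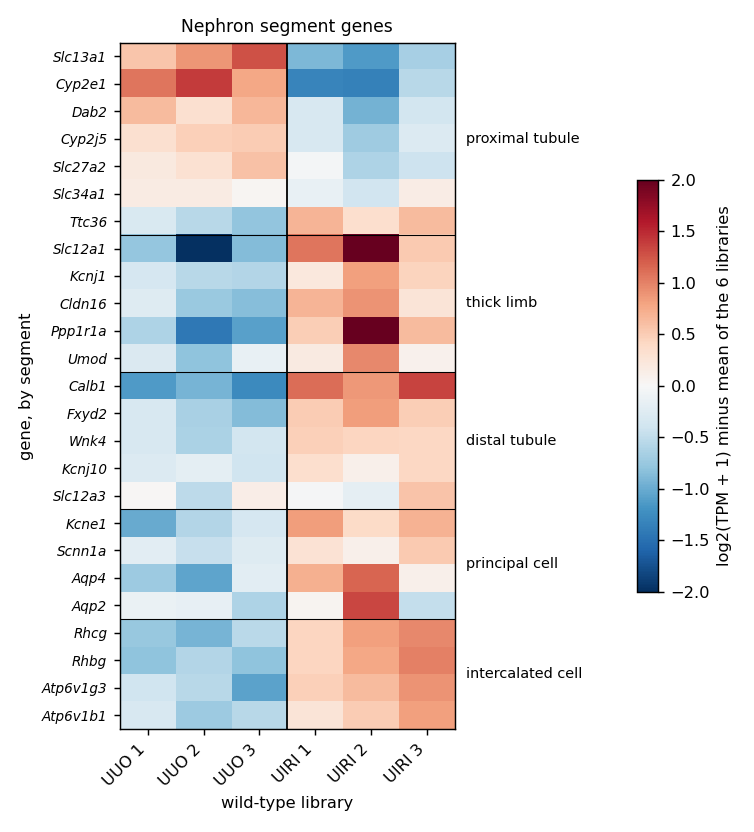
Heat map of 25 nephron genes (rows, grouped by segment) in the 6 wild-type libraries (columns). Colour is log2(TPM + 1) minus the gene's mean over the 6 libraries and saturates at 2 in either direction. Proximal tubule rows other than Slc34a1 and Ttc36 are higher in the UUO libraries, and most rows of the later segments are lower, with UIRI library 2 the darkest for Slc12a1, Ppp1r1a, Umod and Aqp2.

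The renin-angiotensin system, which raises blood pressure and also drives scarring, was higher after UUO in 6 of 8 genes and lower in 0 (median 0.68). These shares were 75% and 0%, against 17.8% and 12.4% over all genes. Without UIRI library 2, where 1157 of all 16339 genes were higher, 4 of the list were higher. Ren1 (renin), made by the juxtaglomerular cells, was at 205, 169 and 300.5 TPM after UUO and 69.4, 37.4 and 60.1 TPM after UIRI, 4.003-fold higher (2.001 ± 0.28, adjusted p = 0.00485). The angiotensin receptor Agtr1a was at 61.1, 45.8 and 46.1 against 23.8, 19.3 and 22.6 TPM (1.18 ± 0.15, adjusted p = 0.00349). Endothelial genes were higher in 9 of 20 and lower in 1 (45% and 5%, median 0.58). Pecam1 (CD31) was at 54.3, 46.9 and 46.9 TPM after UUO and 23.1, 21.8 and 26.97 TPM after UIRI (1.01 ± 0.12, adjusted p = 0.00293), Eng (endoglin) at 212, 237 and 184 against 92.8, 88.5 and 84.7 TPM (1.24 ± 0.11, adjusted p = 0.00162), and the VEGF receptor Kdr at 17.6, 11.4 and 13.99 against 6.96, 5.59 and 7.31 TPM (0.99 ± 0.18, adjusted p = 0.01). Of 18 podocyte genes 3 were higher and 1 lower (16.7% and 5.56%), the higher share being close to that of all genes. Leaving out 1 library gave 0 (UUO library 1 or 3 or UIRI library 2) to 5 (UUO library 2) higher. Without UIRI library 1 there was 1.

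Stromal and matrix genes differed gene by gene. In the list of 25 fibroblast and myofibroblast genes 4 were higher and 6 lower (16% and 24%, against 17.8% and 12.4% over all genes). In that of 30 collagen and matrix genes 6 were higher and 3 lower (20% and 10%). These matrix shares were close to those over all genes, which is no result about that list. The lower fibroblast genes numbered 1 without UIRI library 2, 2 without UIRI library 1 and 3 without UUO library 2, and the lower matrix genes 1 when any of these 3 libraries was left out. The receptors Pdgfra and Pdgfrb, which mark fibroblasts and pericytes, were higher after UUO: Pdgfra at 67.9, 53.5 and 54.6 against 35.3, 30.4 and 27.7 TPM (0.89 ± 0.14, adjusted p = 0.00627), and Pdgfrb 1.86-fold (adjusted p = 0.0101). Fbln5 (fibulin-5), which assembles elastic fibers, was at 123, 132 and 104 against 49.7, 40.6 and 41.99 TPM (1.42 ± 0.13, adjusted p = 0.00161), and Col8a1, a short-chain collagen of vessels, was 3.76-fold higher (adjusted p = 0.0145). Mfap5, a microfibril protein, was lower at 5.37, 2.02 and 0.844 against 16.9, 20.05 and 9.36 TPM (-2.26 ± 0.47, adjusted p = 0.0143). Dpt (dermatopontin) was at 22.9, 14.6 and 8.79 against 55.3, 106 and 33.4 TPM (-1.94 ± 0.46, adjusted p = 0.0208). Both lost their call without UIRI library 2, and Dpt also without UIRI library 1 and with no filter on low values. The usual fibrosis readouts were not called: Acta2 (smooth muscle actin) was at 158, 160.4 and 119 against 295, 312 and 145 TPM (-0.71 ± 0.29, adjusted p = 0.105), Col1a1 at 177, 120.2 and 123 against 236, 165 and 138 TPM (-0.35 ± 0.23, adjusted p = 0.276), and Col3a1 at 190.5, 154 and 153 against 365, 276 and 191 TPM (-0.69 ± 0.23, adjusted p = 0.0562). With replicate number as a block in the fit, Acta2, Col1a1 and Col3a1 were all called lower. Acta2 was also called lower without UIRI library 3 and by limma voom. Col3a1 was called lower without UIRI library 3, with the gene length trend removed and on the 3 scales with a median near 0. Fn1 (fibronectin) was higher, at 138, 115 and 101.4 against 91.4, 71.04 and 73.1 TPM (0.58 ± 0.15, adjusted p = 0.0272), a call lost without UUO library 1, UUO library 2, UIRI library 2 or UIRI library 3, with no filter, and with the gene length trend removed (0.33, adjusted p = 0.138).

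Among Wnt ligands, secreted signals some of which stabilise β-catenin, 5 of the 11 tested were lower after UUO and 0 higher. The Wnt list as a whole was lower at a share close to that of all genes. Of 38 Wnt pathway genes 3 were higher and 6 lower (7.89% and 15.8%, against 17.8% and 12.4% over all genes). The lower ligands were Wnt2, Wnt4, Wnt7b, Wnt9b and Wnt10a, and the other lower gene was the secreted inhibitor Sfrp1. Without UIRI library 2, 3 were lower and 1 higher, without UUO library 2 there were 5 higher, and without UUO library 3 or UIRI library 3 there was 1. Wnt4 was at 3.14, 4.84 and 3.19 TPM after UUO and 19.5, 21.2 and 10.1 TPM after UIRI (-1.88 ± 0.29, adjusted p = 0.00642). Wnt7b was at 4.66, 3.47 and 3.602 against 20.2, 24.5 and 10.4 TPM (-1.91 ± 0.297, adjusted p = 0.0066), and Wnt2 at 0, 0 and 0.395 against 6.68, 4.58 and 1.902 TPM (-2.16 ± 0.41, adjusted p = 0.0112). UIRI library 3 had the lowest level of its group for Wnt2, Wnt4, Wnt7b and Wnt10a and still lay above every UUO library. Wnt10a (-1.29) lost its call without UIRI library 1 or 2 and with the GC trend removed, and Wnt9b (-1.27) without UUO library 2 or 3 or UIRI library 2 or 3, with no filter, and with the GC trend or both trends removed. The pathway's nuclear effector Ctnnb1 (β-catenin) was at 299, 255 and 298 against 238, 186 and 224 TPM, called higher after UUO (0.398 ± 0.12, adjusted p = 0.0484), a call that 13 alternatives removed, 5 of them by leaving out a library. The target gene Axin2 was not called (-0.78, adjusted p = 0.162) except without UUO library 1, where it was lower (-1.204).

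**Figure D4:**
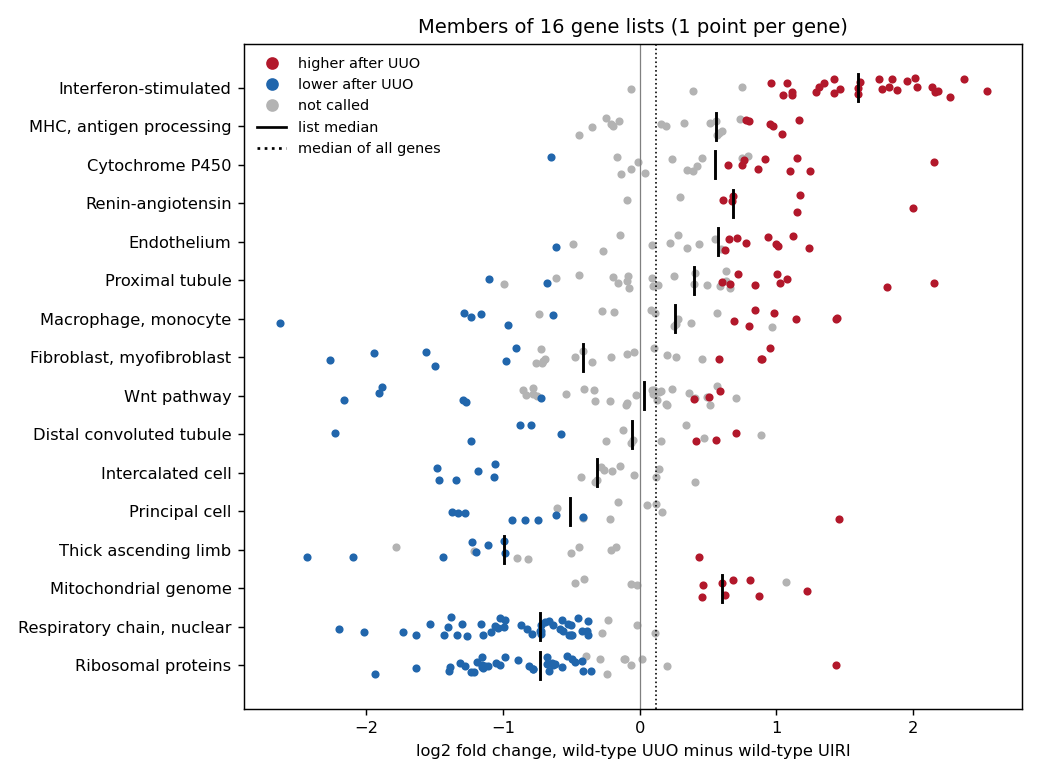
Log2 fold change (UUO minus UIRI, horizontal axis) of the measured members of 16 gene lists, 1 point per gene, in red where called higher after UUO, blue where called lower and grey where not called. Black bars are list medians and the dotted line is the median of all genes tested, 0.12. The interferon-stimulated list has a median of 1.599, and the medians of thick ascending limb, nuclear respiratory chain and ribosomal protein genes lie left of 0.

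Genes for mitochondrial respiration moved in opposite directions by genome. The respiratory chain is built from subunits of nuclear genes and 13 subunits of the mitochondrial genome. Of 46 nuclear genes 42 were lower after UUO and 0 higher (91.3% lower, median -0.73). Of the 13 mitochondrial ones 8 were higher and 0 lower (61.5% higher, median 0.602). Over all genes 12.4% were lower and 17.8% higher. Uqcr11, a small subunit of complex III, was at 141, 108 and 109.8 TPM after UUO and 812, 1123 and 739 TPM after UIRI (-2.87 ± 0.18, adjusted p = 0.000587). Cox5b of complex IV was at 153, 113 and 115 against 569, 674 and 514 TPM (-2.2 ± 0.15, adjusted p = 0.000782), and Ndufb8 of complex I at 53.1, 47.8 and 54.8 against 134, 143 and 122 TPM (-1.34 ± 0.101, adjusted p = 0.000927). Atp5b, Uqcrc1, Uqcrc2 and Ndufs1 were the nuclear genes not called. From the mitochondrial genome, mt-Nd5 was at 4336, 3673 and 4964 against 1790.3, 1619 and 2135 TPM (1.22 ± 0.16, adjusted p = 0.00433) and mt-Nd2 at 7339, 8211 and 8071 against 3841, 4485 and 4585 TPM (0.87 ± 0.14, adjusted p = 0.00674, but 0.17 with no filter on low values). Only 2 mitochondrial genes were higher with the FPKM values as deposited or with median-of-ratios scaling, and leaving out 1 library gave 2 (without UIRI library 1 or 2), 3 (without UIRI library 3), 4 (without UUO library 3) and 5 (without UUO library 1 or 2).

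Ribosomal protein genes were lower too, with 35 of 44 lower and 1 higher (median -0.73). These shares were 79.5% and 2.27%, against 12.4% and 17.8% over all genes. Rps15 was at 1324, 1249 and 1146 TPM after UUO and 3092, 3868 and 2847 TPM after UIRI (-1.39 ± 0.15, adjusted p = 0.00251), and Rpl38 was 3.82-fold lower (adjusted p = 0.00276). The 1 higher member, Rpl24, was at 15.3, 17.7 and 15.2 against 5.04, 6.07 and 4.86 TPM. Rpl24 and several genes with the largest differences may share reads with near-identical copies, so their values are uncertain: Gm11808 at 32.5, 37.8 and 28.6 TPM after UUO and 764, 875 and 761 TPM after UIRI (-4.56 ± 0.12), Gm11273 at -3.31, Gm11361 at 2.403 and Rpl10-ps3 at 2.43.

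A trend with gene length ran through the whole comparison and moved with these lists. Among protein-coding genes of 600 to 1000 bases the median log2 fold change was -0.58, with 45.4% lower, and among those over 8000 bases it was 0.37, with 34.0% higher. Across 8 classes of GC content the median fell from 0.40 in the lowest to -0.25 in the highest. The nuclear respiratory genes had a median length of 1918 bases and the ribosomal protein genes of 1752 bases, against 3579 bases over all genes tested. With the length and GC trends taken out of each library, an alternative chosen after seeing the data, 34 respiratory genes were lower and 0 higher (median -0.57), 25 ribosomal protein genes were lower and 2 higher (-0.56), and 28 interferon-stimulated genes were higher (1.58). Thick ascending limb genes then had 7 lower (-0.91) and mitochondrial genome genes 8 higher (0.69). The trend separated the tables as well as the injuries, which cannot be told apart.

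**Figure D5:**
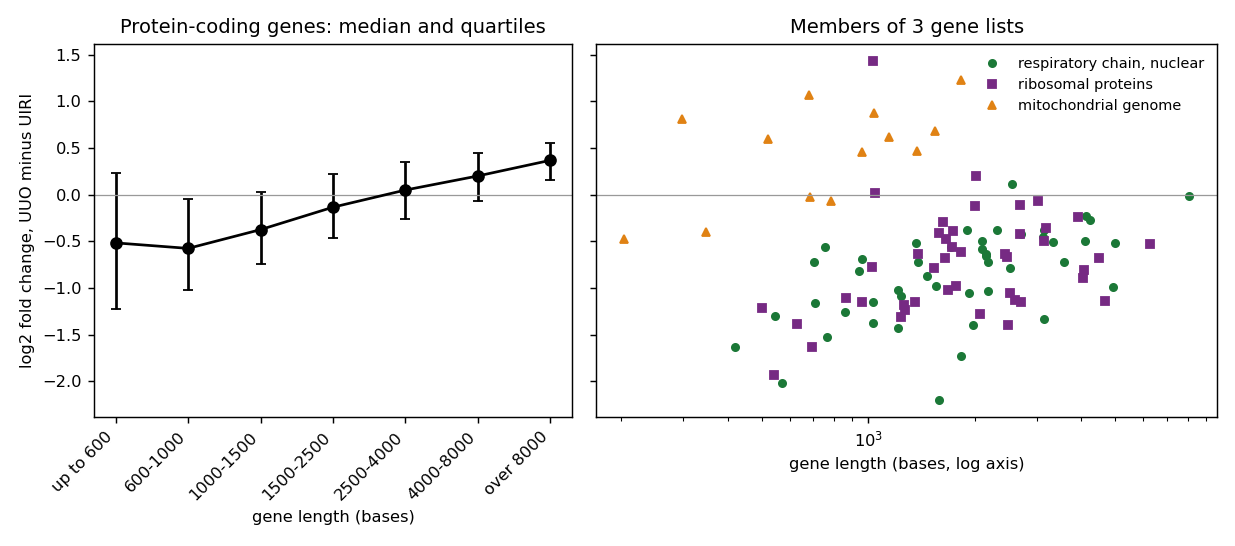
Log2 fold change (UUO minus UIRI, vertical axes) by gene length in bases. The left panel gives the median (points) and quartiles (bars) of protein-coding genes in 7 length classes, from -0.52 up to 600 bases and -0.58 at 600 to 1000 bases to 0.37 over 8000 bases, and the right panel (log axis) each measured nuclear respiratory chain, ribosomal protein and mitochondrial genome gene.

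Stk11 (LKB1), the kinase that activates AMPK, was at 61.8, 54.1 and 65.2 TPM after UUO and 98.2, 95.3 and 91.7 TPM after UIRI (-0.65 ± 0.099, adjusted p = 0.0063). The AMPK catalytic subunit Prkaa2 was higher at 41.3, 31.8 and 45.8 against 22.5, 20.4 and 22.96 TPM (0.81 ± 0.15, adjusted p = 0.00975) and the regulatory subunit Prkag1 lower at 19.9, 19.8 and 20.2 against 38.4, 48.9 and 44.2 TPM (-1.09 ± 0.11, adjusted p = 0.00243). With the GC trend removed Stk11 and Prkaa2 were no longer called (adjusted p = 0.072 and 0.0526, Prkaa2 also with both trends removed), and Prkag1 was still called (adjusted p = 0.00335). Sumo2 and Sumo3, modifiers joined to proteins in sumoylation, were not called (0.17 and 0.08). Sumo2 varied widely within both groups, at 106, 78.4 and 9.85 TPM and 87.9, 15.7 and 42.6 TPM, its log2 fold change was 1.197 without UUO library 3, -0.46 without UIRI library 2 and -0.45 without UUO library 1, and whether its reads were split with near-identical copies was not tested. Mitochondrial fatty acid oxidation, with 29 measured genes, had 5 higher and 3 lower, shares (17.2% and 10.3%) close to those over all genes (17.8% and 12.4%), which is no result about the pathway. The higher ones numbered 1 without UIRI library 1 or 2 and 2 without UUO library 1 or 3 or UIRI library 3, and the lower ones 1 without UUO library 2 or 3 or UIRI library 2. Cpt1a, which admits fatty acids to the mitochondrion, was at 201, 139 and 231 against 166, 135 and 149.8 TPM and was not called (0.31 ± 0.19, adjusted p = 0.242), though it was called higher without UUO library 2 (0.53). Etfb, which passes electrons from that pathway to the respiratory chain, was at 32.7, 27.7 and 22.2 against 117, 166 and 112 TPM (-2.21 ± 0.19, adjusted p = 0.00151).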

How the data were processed

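RNA of mouse kidney was sequenced in 12 libraries, 6 of which are used. The authors deposited FPKM values per gene (fragments scaled for gene length and library depth) in 1 table per knockout, each scaled separately. The submitters' processing notes name HISAT2 2.0.5, featureCounts 1.5.0-p3, DESeq2 1.20.0 and build GRCm38. Strand settings are not given in the sources used here. Each FPKM times gene length, divided by a step fitted for each library, was a whole number within 0.01 for 100% of values. With the step taken as 1 read, this gave the depth (15940405 to 18760208 assigned reads). Each column was rescaled to TPM and log2(TPM + 1) of genes that averaged 0.5 FPKM or more was fitted with limma 3.58.1 (R 4.3.3, eBayes with trend, 2 groups of 3, no covariate), two-sided with Benjamini-Hochberg adjustment, threshold 0.05. Because the deposited unit is FPKM, a model on the recovered reads (limma voom) served only as an alternative. The study describes the UUO libraries as individual animals and gives no batches, so p-values measure only the spread between these libraries, which may be partly technical.

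The limma fit was tested on simulated data. Named genes were the 12 largest rises and falls among called protein-coding genes (a mean of 5 TPM or more in the higher group, groups not overlapping), the 5 members of each of 78 gene lists (1307 tested symbols) with the smallest p, fixed study and marker genes, and the 5 largest TPM differences each way. Ifit1, Irgm1, Irf7, Ccl12, Ly6c2, Trem2, Mt1, Dpt, Wnt9b and Rpl38 and list members given as exceptions or only by a log2 fold change were chosen after their values were seen. The comparison, the members and the lists were chosen with earlier results of these data known. Some genes that the rule names are not reported here. Alternatives were another pseudocount, filters, scales, limma without a trend, limma voom, a replicate block, leaving out each library, and removing gene length and GC trends.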

Additional observations from a re-analysis of the deposited data

How the results depend on the processing

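Counts of genes that moved by over 1.5 times, with the range over single libraries left out, were as follows. Higher genes numbered 1802 with no filter, 1930 with the FPKM values as deposited and between 1157 (without UIRI library 2) and 2485 (without UUO library 2) with 1 library left out. Lower genes numbered 1251 with the length and GC trends removed and between 1104 (without UIRI library 2) and 1818 (without UUO library 1) with 1 library left out. Genes at least 2-fold higher numbered 232 with the FPKM values as deposited, 746 with the length trend removed and between 282 (without UIRI library 2) and 538 (without UUO library 2) with 1 library left out. Genes at least 2-fold lower numbered 927 by limma voom, 336 with the length trend removed and 282 with both trends removed. The cause was not tested. Removing the trends was chosen after seeing the data.

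Directions turned for genes that were not called: S100a8 ranged from -0.12 (without UUO library 3) to 1.97, Lcn2 from -0.81 to 0.097, Ifi27l2a from -0.36 to 0.22, and Sumo2 from -0.46 to 1.197 with 1 library left out. Ifi27l2a was 0.51, 0.049 and 0.57 with the length, the GC and both trends removed. With both trends removed Lcn2 was 0.013 and Aqp2 0.021, Sumo2 -0.066 with the GC trend removed, and Sumo3 -0.052, -0.043 and -0.054 with the FPKM values as deposited, median-of-ratios scaling and limma voom.

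Same-numbered UUO and UIRI libraries share only a number: their deviations correlated at -0.046, 0.14 and 0.015, and not every library correlated best with its own number. With the replicate block 3330 genes were higher, 2159 lower, 473 at least 2-fold higher and 595 at least 2-fold lower. Acta2, Col1a1 and Col3a1 were then called lower (adjusted p = 0.0299, 0.0428 and 0.0265), Lrp2 was called higher (0.0104) and Wnt9b was not called (0.0521). A count of 0 in a library allows up to 3 reads, which for Npy stood for between 0.834 and 0.945 TPM.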

Other observations

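Neuropeptide genes were among the protein-coding genes with the largest fall after UUO. Npy (neuropeptide Y) was at 0 reads in all 3 UUO libraries and at 11.3, 42.1 and 4.29 TPM after UIRI, which makes it at least 21.6-fold lower after UUO with a floor of 3 reads per library. Its fitted log2 fold change of -3.82 was -3.01 without UIRI library 2 and -4.53 without UIRI library 3. Cck (cholecystokinin) was at 4.28, 1.69 and 0.137 TPM after UUO and 18.8, 71.6 and 10.8 TPM after UIRI, and its log2 fold change of -3.35 ± 0.76 (SE, adjusted p = 0.0188) was -2.601 without UIRI library 2. Penk (proenkephalin) was at 3.105, 2.41 and 1.85 against 38.2, 55.1 and 15.5 TPM (-3.28 ± 0.42, adjusted p = 0.00389). UIRI library 2, the library with pelvis genes, was the highest for all 3, and UIRI library 3 the lowest of its group. Ttr (transthyretin), a carrier of thyroid hormone and retinol, was at 11.8, 3.48 and 10.5 against 42.5, 44.5 and 69.7 TPM (-2.57 ± 0.405, adjusted p = 0.00669), while the fibrinogen chain Fga was at 215, 134 and 416 against 81.1, 36.5 and 61.8 TPM (1.99 ± 0.44, adjusted p = 0.0168), a call lost without UIRI library 2.

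Clock genes and some stress genes also differed. Of 19 circadian genes 8 were lower after UUO and 4 higher (42.1% and 21.1%, against 12.4% and 17.8% over all genes), with 4 lower without UUO library 2, UIRI library 1 or UIRI library 3 and 5 lower and 2 higher without UIRI library 2. Dbp, a clock output factor, was at 5.31, 5.99 and 9.17 against 27.4, 21.03 and 25.6 TPM (-1.74 ± 0.202, adjusted p = 0.00294), and the glucocorticoid target Tsc22d3 (GILZ) at 27.9, 28.9 and 67.5 against 103, 94.4 and 143 TPM (-1.53 ± 0.34, adjusted p = 0.0176), the latter losing its call without UUO library 1 or UIRI library 3. The heat shock gene Hspa1b was at 41.2, 30.4 and 42.98 against 86.3, 147 and 119 TPM (-1.58 ± 0.22, adjusted p = 0.00463), and Creld2, a gene of the unfolded protein response, at 51.9, 65.3 and 79.1 against 196, 202 and 181 TPM (-1.56 ± 0.15, adjusted p = 0.00208). Of 12 heat shock genes 5 were lower and 1 higher (41.7% and 8.33%), with 3 lower without UIRI library 2. Of 23 genes of the integrated stress and unfolded protein responses 6 were lower and 1 higher (26.1% and 4.35%). The other 16 were not called, and the lower ones numbered 3 without UIRI library 1 or 2. The immediate early factor Egr1 was higher after UUO, at 103, 80.2 and 117 against 42.2, 28.9 and 50.9 TPM (1.298 ± 0.22, adjusted p = 0.00857). The chloride channel regulators Clca3a1 and Clca3a2, close relatives between which reads may be split, went opposite ways: Clca3a1 was at 184, 237 and 289 against 50.1, 27.8 and 48.9 TPM and Clca3a2 at 0.766, 0.514 and 1.704 against 15.5, 23.8 and 7.302 TPM.

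The remaining genes with the largest differences were of several kinds. Slc22a26, an organic anion transporter, was at 4.76, 7.36 and 19.2 TPM after UUO and 1.12, 0.591 and 0.63 TPM after UIRI (2.49 ± 0.45, adjusted p = 0.00935), and Azgp1, a secreted zinc-binding glycoprotein, at 11.6, 10.2 and 14.1 against 1.29, 2.62 and 1.07 TPM (2.32 ± 0.25, adjusted p = 0.00266). Lower after UUO were the lysozyme gene Lyz1, a close copy of Lyz2 with which it may share reads, at 1.34, 0.872 and 0.564 against 6.17, 21.8 and 31.1 TPM (-3.19 ± 0.52, adjusted p = 0.00747, and -3.83 without UIRI library 1), and the glutathione transferase Gsta1, also with close copies, at 0.177, 1.15 and 0.373 against 9.05, 9.58 and 6.43 TPM (-2.61 ± 0.29, adjusted p = 0.00278).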
